A study of Homo sapiens with 21 samples.

Results

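Cadmium added on top of DES was measured by setting the 3 RNA sequencing libraries of cells given DES and then cadmium against the 3 libraries of cells given DES alone, 6 of the 21 libraries in the series. The libraries were chosen by their treatment labels. Of the 58735 genes in the deposited table, 51112 were at least 200 bases long. Of these, 13690 had a mean of at least 0.5 FPKM (fragments scaled to gene length and library size) over the 6 libraries and were tested. All libraries came from MDA-MB-453, an established human breast cancer cell line, here with its wild-type genotype. The group called DES received diethylstilbestrol, a synthetic estrogen, at 10 μM for 24 h. The group called DES with cadmium received DES at 10 μM for 3 h, followed by 24 h with cadmium at 10 μM. The groups quoted beside them, 3 libraries each, were untreated control cells, cells given cadmium at 10 μM for 24 h without DES, and cells given DES for 3 h followed by calcium at 10 mM for 24 h. DES timing differed between the groups compared, and the medium of the cells given DES alone is not stated apart from the others, so neither can be told apart from the addition of the metal. The replicates are not stated to be separate cultures, so p-values measure only the spread between these libraries.

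Cadmium is a toxic metal that cells bind with metallothioneins, small cysteine-rich proteins whose genes are switched on by the zinc-sensing transcription factor MTF1. The same factor drives the gene of the zinc exporter SLC30A1, and cadmium also damages protein thiols, which is known to bring up heat shock proteins and the heme-degrading enzyme HMOX1. DES binds estrogen receptors and is also known as an inverse agonist of the estrogen-related receptors, nuclear receptors that act on genes of energy metabolism.

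The marker genes fitted a luminal breast line. All 10 luminal markers had a mean of at least 1 FPKM, KRT19 being the most abundant, and they summed to 3012, 2418 and 1805 FPKM in the DES libraries and to 5092, 2976 and 2620 FPKM in the libraries of DES with cadmium. None of the 6 basal markers reached a mean of 1 FPKM; the most abundant was KRT17, and the sums were 0.591, 1.58 and 0.438 FPKM with DES and 1.23, 0.154 and 1.12 FPKM with DES and cadmium. The 5 immune markers, led by CD68, summed to at most 1.09 FPKM in any of the 6 libraries, and the 3 endothelial markers, led by VWF, to at most 0.543 FPKM. Of the 6 fibroblast markers, COL1A1 alone reached 1 FPKM, with list sums of 12.6, 15.9 and 33.0 FPKM with DES and 9.80, 24.0 and 28.3 FPKM after cadmium was added. Of the 30 markers 19 were under the expression filter and so were not tested, and of the 11 tested 0 were called by limma.

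The libraries of a group were unlike one another. Fragments on genes numbered 24907094, 18314738 and 15704403 with DES and 23219029, 14435925 and 19454418 with DES and cadmium. The number of genes with a fragment was 20363, 22143 and 35112 with DES and 16605, 24202 and 22715 with DES and cadmium, so DES replicate 3 had the most and replicate 1 with cadmium the fewest. Mitochondrial genes held 4.96%, 3.47% and 4.21% of fragments with DES and 5.31%, 1.97% and 3.11% after cadmium was added. The library size behind the deposited FPKM was 0.908, 1.02 and 1.05 times the fragments on genes with DES and 0.693, 0.960 and 0.933 times after cadmium was added, so deposited FPKM of replicate 1 with cadmium stand higher than a share of fragments would. The median SD of log2 FPKM over genes was 0.505 in the group with cadmium, 0.339 with DES alone and 0.208 in the control group. Intervals and floors given below cover counting error only.

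With cadmium on top of DES few genes rose, among them the metal-binding MT1B and the zinc exporter SLC30A1, and more genes fell, most of them non-coding. A gene was called when its adjusted p (limma, Benjamini-Hochberg over all genes tested) was under 0.05. By that rule 32 of 13690 genes (0.234%) were called, 7 higher (0.0511%) and 25 lower (0.183%), each by at least 2.00 on the log2 scale. At an unadjusted p under 0.05 stood 1532 genes (11.2%), 339 higher (2.48%) and 1193 lower (8.71%), the background for the counts at that threshold given for gene lists below. The filter on low values decided most calls. With no filter AC108134.2, KLKP1 and AC026461.3 were called, all higher, and at a mean of at least 2 FPKM AC108134.2 and KLKP1 were. Neither setting called MT1B, SLC30A1 or any of the 25 lower genes. Some of the 25, such as AC073210.1 and NDUFA3P1 with means of 1.352 and 1.395 FPKM, were under the limit of 2 FPKM and so were not tested there. The 7 that rose were the metallothionein gene MT1B, SLC30A1, the G-protein regulator RGS16, the kallikrein pseudogene KLKP1 and the long non-coding RNAs AC108134.2, AC026461.3 and AC016396.1. In a fit with the replicate number as a block, which pairs library 1 with library 1 and so on, 172 genes (1.26%) were called, 22 higher (0.161%) and 150 lower (1.1%), and all 32 were among them. The groups did not overlap, all 3 libraries with cadmium being above all 3 with DES alone, at 785 genes (5.73%), and were all below at 1562 genes (11.4%). Leaving out 1 library ended many calls. Over the 32 genes and the 6 libraries the log2 change stayed at 0.879 to 1.17 times its full value, with 0 changes of sign. All 32 had groups that did not overlap, so leaving out 1 library could not change a sign. They were also called on these same libraries for changes large beside their spread, which limits how far the size could move. Without DES replicate 1 or without DES replicate 2, limma called 0 genes (1710 and 789 genes at an unadjusted p under 0.05). Without DES replicate 3 KLKP1 alone was called, and without replicate 3 of DES with cadmium AC108134.2 alone. Without replicate 1 of DES with cadmium 41 genes were called, 23 of the 32 among them, and without its replicate 2 the count was 77, with 31 of the 32. The blocked fit called 0 genes without replicate 1 of both groups (2145 at an unadjusted p under 0.05), 743 without replicate 2 and 2, KLKP1 and AC108134.2, without replicate 3. Scaling by total fragments moved the median log2 change of all genes tested from -0.02 to -0.23 and called 0 genes (1729 at an unadjusted p under 0.05), and voom on recovered fragments moved it to -0.25 and also called 0 (1612).

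The metallothioneins had the highest median change of the gene lists compared. Of the 12 listed, 10 were tested, all 10 had a higher fitted level with cadmium, and in 8 of them the groups did not overlap. MT4 and MT1H, at 0 in DES, and MT1B, at a mean of 0.159 FPKM with DES, passed the expression filter only through the libraries with cadmium. Their higher level follows from the filter, and so does part of the list's count and median. The median log2 change was 4.24, or 4.27 with genes at 0 in DES set to their lower bound, beside -0.02 for all genes tested, and it stayed between 4.02 and 4.59 under median-ratio, total-fragment, quantile and voom scaling. MT1B alone was called, and 5 were called with the replicate block (MT1B, MT1E, MT1F, MT1L and MT2A). The metallothionein genes lie side by side on chromosome 16 and some of them, as among the MT1 genes, are closely alike in sequence. The share of fragments given to such members is uncertain.

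MT1B (ENSG00000169688, GRCh38.p14 chromosome 16, 56651899 to 56653204) had FPKM of 0, 0 and 0.477 with DES and of 105, 8.16 and 139 with DES and cadmium. Every library with cadmium was above every library without it, and replicate 2 was the lowest of the 3. The DES value rested on 3 fragments in replicate 3, and the ratio of the groups was 661 (95% counting interval 226 to 3206). Its log2 change was 8.11 (SE 1.14, adjusted p 0.0480), with an adjusted p of 0.192, 0.35 and 0.274 without DES replicates 1, 2 and 3 and of 0.0743, 0.0161 and 0.158 without replicates 1, 2 and 3 of DES with cadmium. The adjusted p ran from 2.17e-05 to 0.366 over 28 alternatives, of which 12 called it.

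MT2A, the most abundant metallothionein in these cells, stood at 297, 336 and 792 FPKM with DES and at 10180, 1840 and 5493 FPKM with DES and cadmium. The groups did not overlap and the ratio of their means was 12.3, with a log2 change of 3.45 (SE 0.69, adjusted p 0.113, or 0.0461 with the block). MT1F had 8.43, 7.94 and 22.4 FPKM with DES and 1922, 127 and 691 FPKM with DES and cadmium, and MT1X had 9.53, 8.73 and 26.1 against 1551, 78.4 and 302 FPKM. In both genes DES replicate 3 was the highest without cadmium, replicate 1 the highest with it, and replicate 2 the lowest with it. The log2 changes were 5.58 for MT1F (adjusted p 0.0806, 0.0304 with the block) and 4.67 for MT1X (adjusted p 0.124, 0.0521 with the block). MT4 had 0 fragments in all 3 DES libraries and 19.2, 0.245 and 75.9 FPKM with cadmium, at least 59.2-fold higher against a floor of 3 fragments per library, with an adjusted p of 0.215 (0.0813 with the block). The bound was 18.1 without replicate 3 of DES with cadmium. MT1H, also at 0 in DES, had 0.688, 0.0998 and 8.76 FPKM with cadmium, at least 14.6-fold higher, or 1.80-fold without replicate 3, with an adjusted p of 0.386. MT1G and MT1M overlapped between the groups, and MT1A and MT3 were under the expression filter. Summed over the list, the metallothioneins reached 325, 363 and 866 FPKM with DES, 15210, 2153 and 7190 once cadmium followed, 64.0, 25.4 and 96.6 in control cells and 2943, 3382 and 5695 with cadmium without DES.

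**Figure D1:**
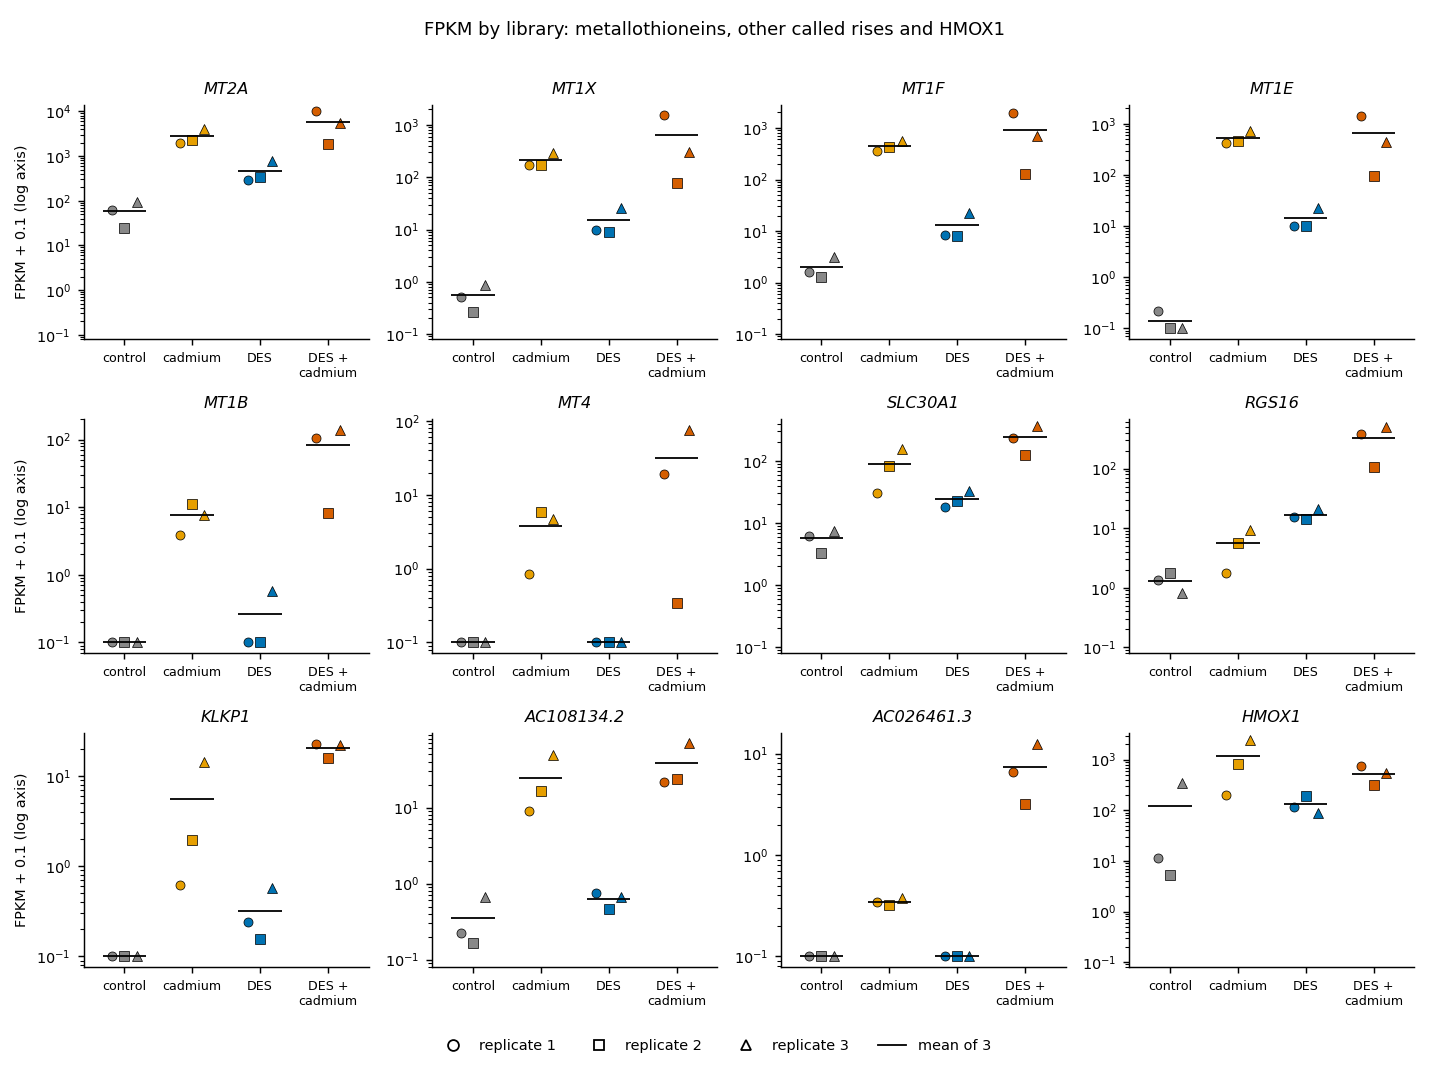
FPKM plus 0.1 on a log axis for 12 genes, with 1 point per library, in control cells, cadmium without DES, DES and DES with cadmium. For MT1B the libraries of DES with cadmium sit between 8.16 and 139 FPKM and those of DES between 0 and 0.477 FPKM; replicate 2 is the lowest metallothionein library among those with cadmium for MT2A (1840 FPKM) and MT1F (127 FPKM).

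Promoter windows were read because these genes moved together and because MTF1 is known to bind the metal response element. RefSeq windows on GRCh38.p14, from 250 bases before to 50 after the RefSeq start of the gene, were at hand for 5 of the 12 metallothioneins, 3 of the 7 genes that rose and 6 of the 25 that fell. The core searched was TGCACNC or TGCGCNC on both strands, which 29.6% of 35116 windows held and of which 2.3% held at least 3. All 5 metallothionein windows held at least 3 matches (MT1B 3, MT4 3, MT1X 4, MT2A 8 and MT1H 8), RGS16 held 3 and SLC30A1 held 2. Of the 6 windows of genes that fell, 3 held 1 match each and 0 held 3 or more. The heat shock element, GAANNTTC or TTCNNGAA, stood in 13.5% of all windows, and the estrogen-related receptor element, TNAAGGTCA, in 0.951%, and each was in 0 of these windows. The RefSeq start can differ from the gene start in the deposited table, and for SLC30A1 and MT2A the starts lie 419 and 385 bases apart, outside the windows. A match describes letters in a window and was not tested as a site. The windows of MT1B, MT2A, MT1X, MT4, SLC30A1 and RGS16 follow, 5′ to 3′, with the matches to the metal response element core in capitals, at chr16:56651636-56651935 (plus strand) for MT1B, chr16:56608334-56608633 (plus) for MT2A, chr16:56682220-56682519 (plus) for MT1X, chr16:56564823-56565122 (plus) for MT4, chr1:211579112-211579411 (minus) for SLC30A1 and chr1:182604340-182604639 (minus) for RGS16.
MT1B: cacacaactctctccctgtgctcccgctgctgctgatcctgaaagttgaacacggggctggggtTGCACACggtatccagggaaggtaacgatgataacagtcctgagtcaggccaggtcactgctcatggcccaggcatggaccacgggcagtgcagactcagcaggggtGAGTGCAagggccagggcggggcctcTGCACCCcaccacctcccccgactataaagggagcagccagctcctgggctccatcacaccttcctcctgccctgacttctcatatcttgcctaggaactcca
MT2A: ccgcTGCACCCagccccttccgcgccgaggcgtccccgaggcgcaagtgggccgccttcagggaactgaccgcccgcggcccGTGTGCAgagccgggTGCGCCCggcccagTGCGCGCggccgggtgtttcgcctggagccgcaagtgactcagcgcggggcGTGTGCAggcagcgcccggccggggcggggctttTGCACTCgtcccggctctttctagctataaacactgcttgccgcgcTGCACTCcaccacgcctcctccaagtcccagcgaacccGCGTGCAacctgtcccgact
MT1X: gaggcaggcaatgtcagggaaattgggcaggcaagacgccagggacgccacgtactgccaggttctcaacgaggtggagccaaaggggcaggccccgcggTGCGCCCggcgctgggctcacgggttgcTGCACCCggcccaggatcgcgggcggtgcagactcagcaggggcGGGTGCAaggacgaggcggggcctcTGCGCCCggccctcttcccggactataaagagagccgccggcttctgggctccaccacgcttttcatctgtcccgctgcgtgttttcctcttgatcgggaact
MT4: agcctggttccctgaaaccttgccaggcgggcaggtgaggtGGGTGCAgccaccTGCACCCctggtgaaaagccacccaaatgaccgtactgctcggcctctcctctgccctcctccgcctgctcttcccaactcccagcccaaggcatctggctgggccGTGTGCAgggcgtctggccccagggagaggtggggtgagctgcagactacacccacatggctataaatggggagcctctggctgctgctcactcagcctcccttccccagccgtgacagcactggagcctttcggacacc
SLC30A1: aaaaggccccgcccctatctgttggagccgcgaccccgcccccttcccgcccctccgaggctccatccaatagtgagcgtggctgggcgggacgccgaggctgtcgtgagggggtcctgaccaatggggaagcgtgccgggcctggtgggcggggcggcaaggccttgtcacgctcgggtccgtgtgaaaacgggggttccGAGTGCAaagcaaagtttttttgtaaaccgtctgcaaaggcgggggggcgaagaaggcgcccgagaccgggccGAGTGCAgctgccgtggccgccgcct
RGS16: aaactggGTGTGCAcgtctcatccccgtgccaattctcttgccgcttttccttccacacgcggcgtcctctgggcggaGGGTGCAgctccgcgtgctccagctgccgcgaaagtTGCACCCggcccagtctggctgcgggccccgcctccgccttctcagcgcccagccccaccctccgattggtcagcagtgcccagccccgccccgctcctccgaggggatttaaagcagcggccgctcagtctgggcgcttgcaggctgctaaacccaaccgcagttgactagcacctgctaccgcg

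Of the zinc transporters, SLC30A1 alone rose. SLC30A1 (ENSG00000170385, chromosome 1, 211571568 to 211578742), which carries zinc out of the cell, had 17.7, 22.6 and 32.4 FPKM with DES and 235, 123 and 373 FPKM with DES and cadmium. The lowest library with cadmium was several times above the highest without it, and the ratio of the means was 10.0. The log2 change was 3.23 (SE 0.44, adjusted p 0.0447, 0.0304 with the block), and the adjusted p ran from 8.8e-05 to 0.35 over 28 alternatives, of which 15 called it. It was 0.186, 0.35 and 0.294 without DES replicates 1, 2 and 3 and 0.0650, 0.0172 and 0.129 without replicates 1, 2 and 3 of DES with cadmium. Of 25 listed zinc transporter genes with MTF1, 18 were tested and 1 was called. The list's median was 0.14, or -0.08 under total-fragment and voom scaling and 0.33 under quantile normalization. It was 0.23, 0.08 and 0.22 without DES replicate 1, DES replicate 3 and replicate 1 of DES with cadmium. MTF1 itself had 2.38, 3.05 and 2.70 FPKM with DES and 3.47, 3.61 and 3.82 FPKM with cadmium added, groups that did not overlap, with an adjusted p of 0.619.

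RGS16 (chromosome 1, 182598623 to 182604408), a protein that shuts off signals from G-protein-coupled receptors, had 15.1, 14.4 and 20.8 FPKM with DES and 386, 105 and 492 FPKM with DES and cadmium. The groups did not overlap and the means differed 19.5-fold, a log2 change of 4.03 (SE 0.56, adjusted p 0.0447, 0.0304 with the block). The adjusted p without DES replicates 1, 2 and 3 was 0.192, 0.35 and 0.294, and without replicates 1, 2 and 3 of DES with cadmium 0.0675, 0.0106 and 0.136. Without DES, mean RGS16 was 1.22 FPKM in control cells and 5.54 FPKM with cadmium, a log2 change of 1.86 (adjusted p 0.110), and the difference between the changes with and without DES, 2.16, had an adjusted p of 0.222.

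KLKP1 (ENSG00000197588, chromosome 19, 50882096 to 50896398), a pseudogene among the kallikrein protease genes, had 0.139, 0.0559 and 0.474 FPKM with DES and 22.8, 16 and 22.2 FPKM with DES and cadmium. Its 3 libraries with cadmium lay close together and far above the others, and the log2 change was 6.18 (SE 0.49, adjusted p 0.0177, 0.0150 with the block). Its adjusted p was 0.134 and 0.0706 without DES replicates 1 and 2, 0.00668 without DES replicate 3, and 0.0402, 0.0161 and 0.113 without replicates 1, 2 and 3 of DES with cadmium. Of the 16 genes listed at the kallikrein locus KLK14 was the other gene tested, with 0.483, 1.39 and 1.57 FPKM with DES and 0.0523, 5.22 and 1.53 FPKM with cadmium, groups that overlapped (log2 change -0.05). The list's median, over 2 genes, was 3.07.

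The 3 long non-coding RNAs that rose were low or absent with DES alone. AC108134.2 (chromosome 16, 3156736 to 3157483) had 0.650, 0.357 and 0.565 FPKM with DES and 21.6, 23.8 and 70.1 FPKM with DES and cadmium (log2 change 5.76, SE 0.48, adjusted p 0.0177). All 3 libraries with cadmium were far above the 3 with DES, and without 1 library the adjusted p was 0.134, 0.142 and 0.133 for DES replicates 1, 2 and 3 and 0.0402, 0.0161 and 0.0490 for replicates 1, 2 and 3 of DES with cadmium. AC026461.3 (chromosome 16, 56609501 to 56611375), which lies between MT2A and MT1L, had 0 fragments in each DES library and 46, 19 and 100 fragments with cadmium, or 6.44, 3.09 and 12.4 FPKM. This was at least 20.6-fold higher against 3 fragments per library, or 13.4-fold without replicate 3, with an adjusted p of 0.0372 that became 0.134, 0.188 and 0.169 without DES replicates 1, 2 and 3 and 0.0406, 0.0168 and 0.129 without replicates 1, 2 and 3 of DES with cadmium. How much of its signal comes from read-through of its metallothionein neighbours was not tested. AC016396.1 had 0, 0 and 0.184 FPKM with DES and 2.28, 11.7 and 6.72 FPKM with cadmium, a ratio of 126 (95% counting interval 22.2 to 5040). Its groups did not overlap, and its adjusted p of 0.0447 became 0.152, 0.35 and 0.274 without DES replicates 1, 2 and 3 and 0.0406, 0.0689 and 0.188 without replicates 1, 2 and 3 of DES with cadmium.

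Of the chaperone and antioxidant lists 0 genes were called in either fit, and some members stood higher in every library with cadmium. The inducible HSP70 gene HSPA1A, whose product refolds damaged proteins, had 993, 858 and 956 FPKM with DES and 3027, 1591 and 4023 FPKM with DES and cadmium. Its near-identical neighbour HSPA1B, between which fragments cannot be assigned with certainty, had 761, 628 and 580 against 2910, 1334 and 2901 FPKM. HSPA6, a strictly stress-induced member, had 1262, 993 and 644 against 4099, 1468 and 2837 FPKM. In each of these genes every library with cadmium was above every library without it, replicate 2 was the lowest with cadmium, and the log2 changes were 1.52 (adjusted p 0.239, 0.0635 with the block), 1.78 (0.166, 0.0512) and 1.47 (0.319, 0.0913). The level with DES alone was already high: mean HSPA6 was 0.212 FPKM in control cells, 430 with cadmium without DES, 966 with DES and 2801 with DES and cadmium. Of 16 listed HSP70 and HSP110 genes 14 were tested, 5 had all cadmium libraries above, 5 had an unadjusted p under 0.05, and the median was 0.18, or -0.04 under total-fragment and voom scaling and 0.09, 0.11 and 0.28 without DES replicate 3 and without replicates 1 and 2 of DES with cadmium. Summed, this list reached 4401, 3991 and 3444 FPKM with DES and 13570, 5995 and 11980 with DES and cadmium. Of 21 listed HSP90, HSP60, J-domain and small chaperones 20 were tested with a median of 0.28 (0.06 under total-fragment scaling, and 0.18, 0.48 and 0.02 without replicates 1, 2 and 3 of DES with cadmium) and 0 calls (2 at an unadjusted p under 0.05, 1 in each direction).

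HMOX1, the enzyme that degrades heme, had 115, 195 and 87.6 FPKM with DES and 740, 318 and 537 FPKM with DES and cadmium. The groups did not overlap, the means differed 4.01-fold, and the log2 change of 2.00 had an adjusted p of 0.127 (0.0744 with the block), with a range of 0.00051 to 0.56 over 28 alternatives, of which 3 called it. Of 27 listed targets of NRF2, the transcription factor of the antioxidant response, 22 were tested, 18 had a log2 change above 0 and the median was 0.38, or 0.10 without DES replicate 3, 0.62 without DES replicate 1, and 0.19 and 0.70 without replicates 1 and 3 of DES with cadmium; it was 0.16 under total-fragment and voom scaling. NQO1, a quinone reductase on the list, had 757, 512 and 248 FPKM with DES and 1052, 666 and 317 FPKM with DES and cadmium. Its groups overlapped, each library with cadmium was above the DES library of the same number, and the adjusted p was 0.842 (0.316 with the block). For the list limma called 0 genes in either fit (3 at an unadjusted p under 0.05, all higher).

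The summed level of the genes that fell was, with DES and cadmium, near that of untreated cells, while single genes differed. Summed over the 25 genes, FPKM were 240, 359 and 392 in the DES libraries and 50.4, 50.02 and 41.0 with DES and cadmium. In libraries that took no part in choosing these genes, the sums were 55.8, 52.4 and 45.8 in control cells and 50.9, 54.0 and 45.1 with cadmium without DES. With DES and calcium they were 149, 104 and 123, between the others. Against the same DES libraries, 24 of the 25 genes had a log2 change below 0 with calcium, with a median of -1.36 beside 0.01 for all genes tested. Between the metals 0 of the 25 were called by limma, where 0.00752% of all genes were. The sums are led by VASN, AC022211.3 and AC022211.1; the other 22 genes summed to 103, 143 and 145 FPKM with DES, 14.2, 17.3 and 15.8 once cadmium followed and 18.1, 15.8 and 11.1 in control cells. The mean of DES with cadmium was within 2-fold of the control mean in 11 genes, more than 2-fold above it in 8, such as TNFAIP3 (0.772 against 0.0429 FPKM) and HRCT1 (0.562 against 0.0808 FPKM), and more than 2-fold below it in 6, such as AC138393.3 (0.196 against 2.03 FPKM). Since the genes were chosen for lying below the DES libraries, the gap between DES and DES with cadmium follows from the choice, and so may part of the gap between DES and the other groups. The 150 genes lower in the blocked fit summed to 1295, 2106 and 2285 FPKM with DES, 307, 524 and 477 once cadmium followed, 360, 350 and 290.4 in control cells and 1091, 779 and 1096 with DES and calcium. Without DES replicate 1, 2 or 3, or without replicate 3 of DES with cadmium, 0 of the 25 were called, while 19 were called without replicate 1 of DES with cadmium and 25 without its replicate 2.

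Of the 25 genes 6 code for proteins. TNFAIP3 (ENSG00000118503, chromosome 6, 137867188 to 137883312), which ends NF-kB signalling by editing ubiquitin chains, had 4.90, 4.43 and 5.63 FPKM with DES and 0.862, 0.80 and 0.654 FPKM with DES and cadmium. The groups were tight and far apart, the ratio of the means was 6.46 and the log2 change was -2.55 (SE 0.29, adjusted p 0.0447, 0.0304 with the block). Its adjusted p was 0.134, 0.35 and 0.294 without DES replicates 1, 2 and 3 and 0.0406, 0.0301 and 0.129 without replicates 1, 2 and 3 of DES with cadmium. Without DES it stood at a mean of 0.0429 FPKM in control cells and 0.707 FPKM with cadmium, so cadmium libraries without DES were above the control and those with DES were below DES alone. The difference between the changes, -5.00, had an adjusted p of 0.00360; its control values rest on few fragments, so its size depends on the pseudocount. HRCT1 (chromosome 9, 35906192 to 35907141) had 4.10, 4.33 and 5.66 FPKM with DES and 0.458, 0.532 and 0.696 FPKM with cadmium added. Every library with cadmium was far below every library with DES, with a log2 change of -2.86 (SE 0.33, adjusted p 0.0447, from 0.000301 to 0.35 over 28 alternatives, of which 16 called it). With DES and calcium HRCT1 was also low, at a mean of 0.80 FPKM, a log2 change of -3.10 against DES. Between the metals its log2 change was 0.25 (limma adjusted p 0.937). TNFAIP3 had a log2 change of -1.23 with DES and calcium against DES.

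Of the other coding genes VASN, EGLN2 and NHLRC1 were named after their values were seen. VASN, a membrane protein that binds TGF-beta, had 86.8, 127 and 139 FPKM with DES and 24.3, 19.2 and 18.1 FPKM with DES and cadmium (log2 change -2.49, adjusted p 0.0447). EGLN2, an oxygen-sensing prolyl hydroxylase, had 4.94, 7.01 and 5.97 against 1.13, 1.5 and 1.39 FPKM (log2 change -2.07). NHLRC1, a ubiquitin ligase, had 7.02, 5.37 and 5.85 against 1.55, 1.03 and 1.08 FPKM (log2 change -2.24). In these 3 genes the groups were far apart and the ratio of the means was at least 4.45, the value for EGLN2. With DES and calcium against DES, the log2 changes of VASN, EGLN2 and NHLRC1 were -1.66, -0.91 and -1.49. For all 3 the adjusted p was above 0.05 without any 1 DES library and without replicate 3 of DES with cadmium, at up to 0.406 for EGLN2 without DES replicate 2. EGLN2 also had an adjusted p of 0.0560 without replicate 1 of DES with cadmium.

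Further regulators were lower by the blocked fit alone. SOCS1, a feedback inhibitor of cytokine signalling, had 32.2, 37.3 and 56.3 FPKM with DES and 7.75, 13.3 and 8.56 FPKM with DES and cadmium (log2 change -2.08, adjusted p 0.0632, 0.0346 with the block). MAT2A, which makes S-adenosylmethionine, had 254, 458 and 520 against 76.0, 121 and 114 FPKM (log2 change -1.95, adjusted p 0.101, 0.0304 with the block). KLF10, a transcription factor of the TGF-beta response, had 35.8, 40.4 and 55.2 against 11.1, 18.5 and 15.3 FPKM (log2 change -1.55, adjusted p 0.101, 0.0446 with the block). In each of the 3 genes the groups did not overlap. The interferon factors IRF1 and IRF9 and the Krüppel-like factor KLF5, chosen like SOCS1 and MAT2A after their values were seen, had log2 changes of -1.88, -1.44 and -1.64 with blocked adjusted p of 0.0492, 0.0491 and 0.0461. NFKBIA, the inhibitor that holds NF-kB in the cytoplasm, had 110, 95.2 and 70.2 FPKM with DES and 48.2, 10.1 and 6.31 FPKM with cadmium, groups apart but with an adjusted p of 0.192 (0.0552 with the block). Of 17 listed NF-kB and cytokine genes 11 were tested, 1 fell and 0 rose, 4 had all cadmium libraries below, and the median was -0.49, which went from -0.07 under quantile normalization to -0.70 under total-fragment scaling, and was -0.31 and -0.27 without DES replicate 1 and without replicate 2 of DES with cadmium. Summed, the list reached 162, 148 and 117 FPKM with DES, 100.3, 44.4 and 38.1 once cadmium followed and 44.0, 44.6 and 41.7 in control cells.

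**Figure D2:**
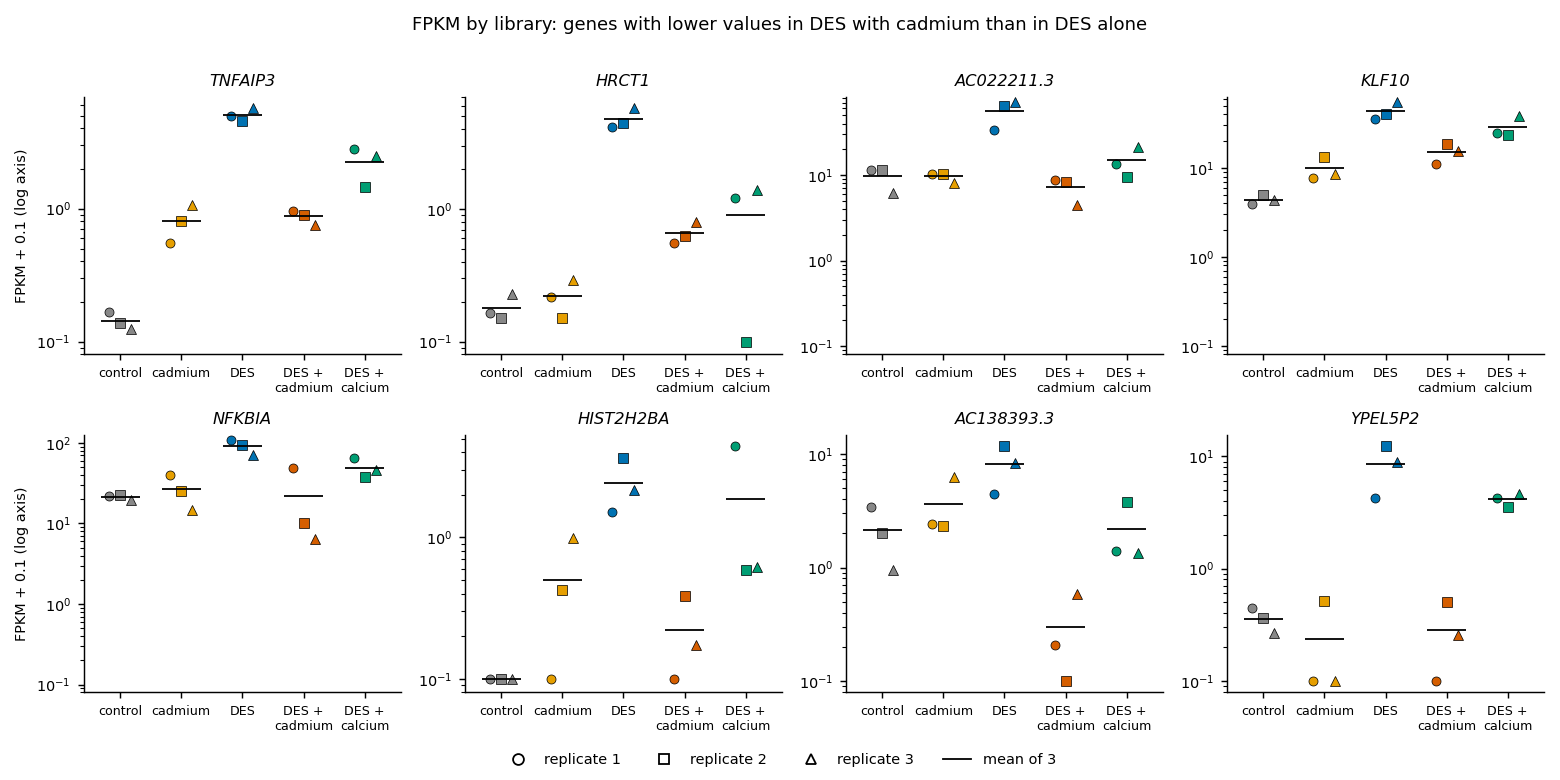
FPKM plus 0.1 on a log axis for 8 genes that were lower with cadmium on top of DES, with 1 point per library for untreated, cadmium-only, DES-only, DES and calcium, and DES and cadmium cells. TNFAIP3 lies between 4.43 and 5.63 FPKM with DES and between 0.654 and 0.862 FPKM with DES and cadmium.

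Most of what fell was non-coding RNA. Of the 10792 protein-coding genes tested 3 rose and 6 fell, and of the 2898 other genes 4 rose and 19 fell. The median log2 change was 0.03 for coding and -0.58 for other genes, and the cadmium libraries were all below the DES libraries at 8.26% of coding and 23.2% of other genes. The classes differed in level, with a median of mean FPKM of 6.59 for coding, 1.31 for other and 1.18 for antisense genes. Antisense RNAs, transcribed across from a gene on the opposite strand, stood out by number: of 925 tested, 7 fell and 0 rose, 53 were lower in the blocked fit, and the median was -0.89. The 173 sense-intronic RNAs had a median of -1.39 with 4 that fell, the 473 lincRNAs a median of -0.55 with 3 that rose and 2 that fell, and the 669 processed pseudogenes a median of -0.12 with 3 that fell. At 0 FPKM stood 55, 13 and 5 antisense RNAs with DES and 308, 32 and 38 with DES and cadmium. For sense-intronic RNAs these counts were 12, 1 and 2 with DES and 78, 17 and 12 with DES and cadmium. How far low level and the zeros of replicate 1 bear on the class medians was not tested. With calcium in place of cadmium on DES, against the same DES libraries, the medians were -0.60 for antisense RNAs, -0.77 for sense-intronic RNAs, -0.39 for lincRNAs and -0.40 for all non-coding genes, beside 0.04 for coding genes. Antisense RNAs together summed to 2286, 2807 and 3205 FPKM with DES, 1634, 2041 and 1772 once cadmium followed and 1584, 1610 and 1527 in control cells. In these sums every library with cadmium was below every library with DES. As a share of fragments they were 0.302%, 0.412% and 0.515% with DES, 0.167%, 0.306% and 0.255% once cadmium followed and 0.330%, 0.337% and 0.297% in control cells, so the groups overlapped and replicate 1 with cadmium lay well below the control.

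Single transcripts show how far the non-coding RNAs fell. AC022211.3 (chromosome 17, 75138416 to 75141350), inside an intron of JPT1, had 33.6, 63.8 and 71.7 FPKM with DES and 8.70, 8.30 and 4.41 FPKM with DES and cadmium (log2 change -2.95, adjusted p 0.0447). JPT1 itself had a mean of 311 FPKM with DES and 345 FPKM with cadmium, a log2 change of 0.03. AC092757.3 had 2.28, 3.74 and 10.0 FPKM with DES and 0 fragments in all 3 libraries with cadmium, at least 15.3-fold lower against 3 fragments per library, or 8.63-fold without DES replicate 3. It lies opposite CCNB2, which had a log2 change of -2.17 with an adjusted p of 0.694. RN7SL441P, AC073210.1 and NDUFA3P1 were also at 0 in the 3 libraries with cadmium and were at least 5.82-fold, 3.31-fold and 3.71-fold lower. AL117381.1, antisense to BCL2L1, and AC135507.1 had 1 to 3 fragments in all with cadmium, and the ratios of DES to DES with cadmium were 71.4 (95% counting interval 12.5 to 2854) and 78.1 (13.7 to 3116). The pseudogene YPEL5P2 and RF00017, with 3 and 2 fragments after cadmium, had ratios of 46.5 (15.7 to 228) and 33.2 (8.90 to 279). AC138393.3 and AL020995.1 had log2 changes of -5.06 and -4.29. All 4 had groups that did not overlap.

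Of the 25 genes that fell, 19 overlap a protein-coding gene, and 17 of those partners were tested. Of these partners 0 were called by limma, and their median log2 change was -0.04 beside -2.76 for the 25 genes. Over all genes tested limma called 0.234%, so 0 of 17 is near that share. In the blocked fit 113 of the 150 lower genes overlap a coding gene, and 0 of their 106 tested partners were called, with a median of -0.09. That fit called 1.26% of all genes tested, so this count too is near the share over all genes. ASH1L-AS1 and its partner ASH1L, named after their values were seen, had log2 changes of -2.22 and 0.01. The strand of the fragments is not known, since the library kit is described as either directional or not, so antisense and intronic counts may hold fragments of the overlapping gene. LincRNAs held 0.35%, 0.619% and 0.665% of fragments with DES and 0.163%, 0.544% and 0.318% once cadmium followed. Replicate 1 had the lowest share of its group for antisense RNAs and lincRNAs in both treatments, and the part of RNA quality or of low-level background RNA in these falls was not tested.

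**Figure D3:**
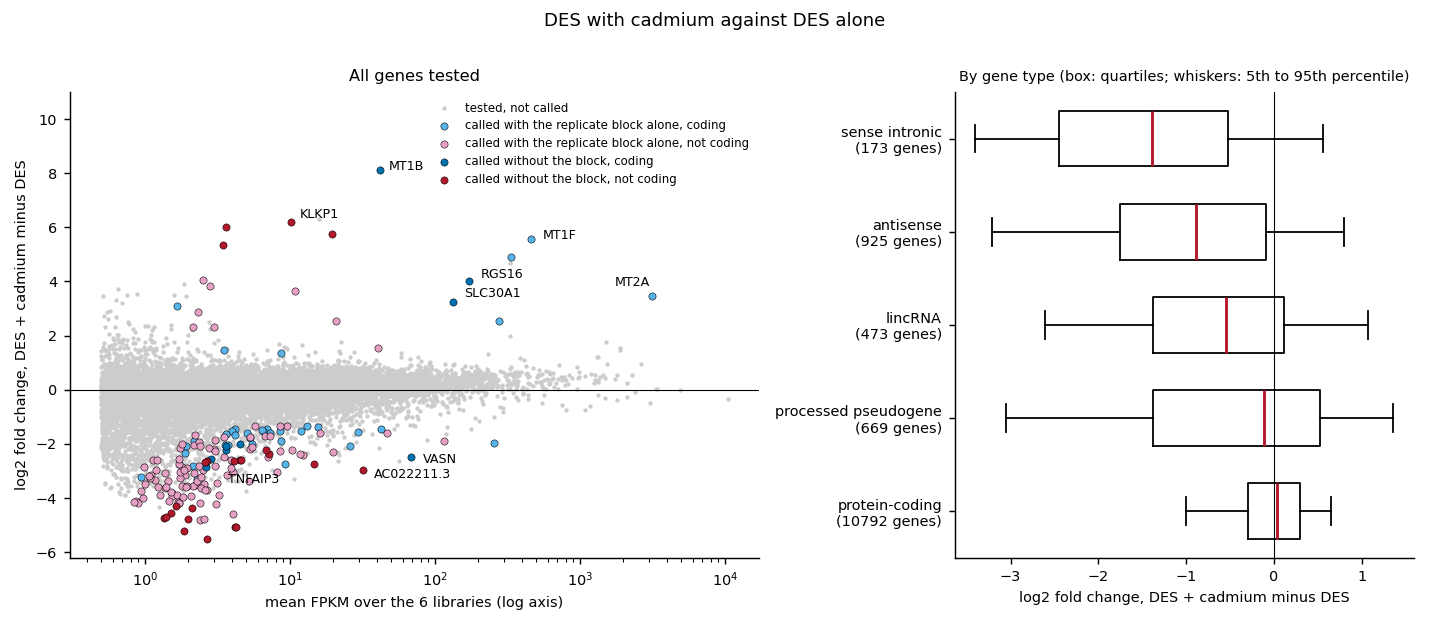
Left, log2 change (DES with cadmium minus DES) against mean FPKM on a log axis, 1 point per gene for 13690 genes, with called genes marked by fit and by coding class; right, boxes of log2 change by gene biotype with whiskers at the 5th and 95th percentiles. Of the 25 genes that fell 19 are not protein-coding, and the median is -0.89 for antisense RNAs beside 0.03 for coding genes.

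Histone genes of the replication-dependent class, whose mRNAs mostly lack a poly-A tail, were split between lower and higher members when cadmium followed DES. Of 90 listed 65 were tested, 39 had a log2 change below 0 and 26 above, 16 had all cadmium libraries below and 2 all above, and the median was -0.52, between -0.38 and -0.83 under the other scalings and -0.28 without replicate 1 of DES with cadmium. Their summed FPKM were not lower, at 2251, 2139 and 1778 with DES and 2260, 3078 and 1816 once cadmium followed. The most abundant member, the linker histone HIST1H1C, chosen after its values were seen, had 497, 403 and 394 FPKM with DES and 651, 759 and 503 FPKM after cadmium was added, all above (log2 change 0.55, adjusted p 0.585). In the main fit limma called 0 of them (21 at an unadjusted p under 0.05, 19 lower and 2 higher), and the blocked fit called 4, all lower: HIST1H1D, HIST1H2BH, HIST1H3C and the pseudogene HIST2H2BA. HIST1H3C, a core histone of the nucleosome, had 19.9, 15.6 and 17.6 FPKM with DES and 4.99, 6.14 and 7.50 FPKM with DES and cadmium (log2 change -1.51, adjusted p 0.0844, 0.0495 with the block). HIST1H1D, a linker histone, had 51.0, 78.9 and 56.5 against 17.6, 35.9 and 17.1 FPKM (log2 change -1.46, adjusted p 0.166, 0.0430 with the block). Neither gene's groups overlapped. The median log2 FPKM of the tested histones was 3.16, 3.16 and 2.92 in the DES libraries, 2.01, 2.41 and 2.24 with DES and cadmium, 0.25, -0.01 and 0.44 in control cells and 1.65, 1.65 and 2.26 with cadmium without DES. Histone genes are near-identical within a class, so the share given to each is uncertain.

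Cell-cycle genes were lower in replicate 2 of DES with cadmium. The median log2 FPKM of 54 G2/M genes, which drive cells through mitosis, was 3.25, 3.70 and 3.67 with DES and 3.47, -0.94 and 3.77 with DES and cadmium. Of these genes 51 had a log2 change below 0 and the median was -1.29, but it was 0.03 without replicate 2 of DES with cadmium and between -2.05 and -1.16 without any other library of the 6. CDK1, the kinase of mitotic entry, had 9.23, 38.0 and 44.7 FPKM with DES and 4.44, 0.844 and 31.1 FPKM with DES and cadmium. TOP2A, a topoisomerase of dividing cells, had 9.51, 21.5 and 20.1 against 11.2, 0.0672 and 16.8 FPKM. In both genes the groups overlapped and replicate 2 was far below the rest. Among G2/M genes limma called 0 in either fit (3 at an unadjusted p under 0.05). Of 43 listed G1/S genes 42 were tested, 38 had a log2 change below 0 and the median was -0.68, or 0.05 without the same library. The G1/S cyclin gene CCNE2 was the 1 gene called with the block, with 1.83, 5.03 and 11.1 FPKM with DES and 0.537, 0.984 and 2.13 FPKM with cadmium (log2 change -2.06, adjusted p 0.315, 0.0372 with the block). Each library with cadmium was below the DES library of the same number, while the groups overlapped. The same replicate 2 had the lowest metallothionein sum with cadmium and the lowest share of mitochondrial fragments, and how far its state bears on the other results was not tested.

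**Figure D4:**
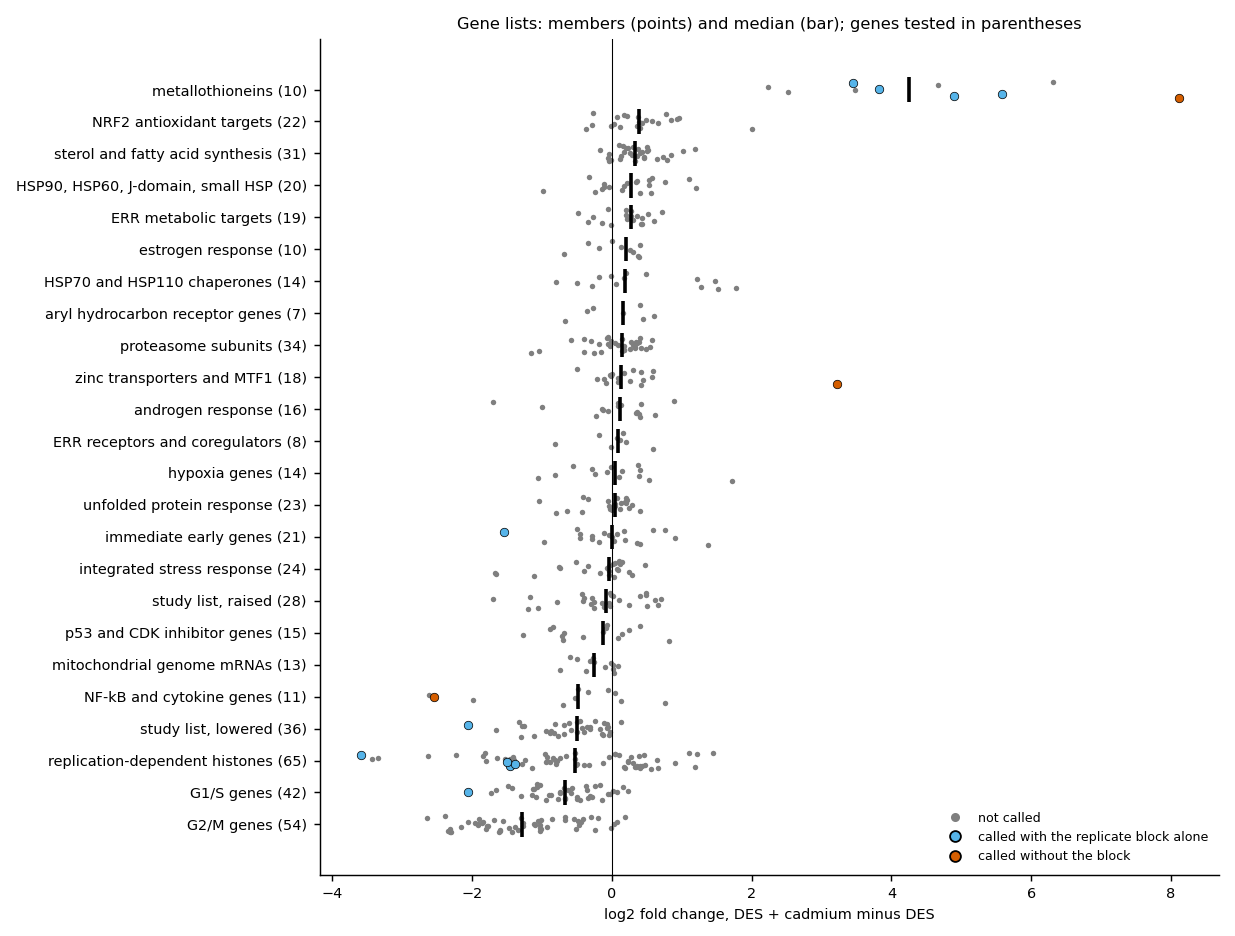
Log2 change (DES with cadmium minus DES) of each tested member, as points, and the median, as a bar, for gene lists with at least 7 tested members. The metallothioneins have a median of 4.24 and the G2/M genes one of -1.29, which is 0.03 without replicate 2 of DES with cadmium.

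The receptors and target genes of the estrogen-related receptor pathway were few or little moved. ESRRB had 0, 0 and 0.0814 FPKM with DES and 0.0944, 0.0243 and 0.00929 FPKM with DES and cadmium, under the filter, and ESRRG was also under it. ESRRA, the most widely expressed of the 3 receptors, had 16.7, 10.5 and 15.9 FPKM with DES and 14.8, 38.7 and 16.6 FPKM with cadmium, groups that overlapped, with replicate 2 alone above the rest (log2 change 0.59, adjusted p 0.665). Of 12 listed receptors and coregulators 8 were tested with a median of 0.09, or -0.12 under total-fragment scaling and 0.26 under quantile normalization. The median was 0.03 and 0.04 without DES replicates 1 and 3 and 0.28, -0.14 and 0.15 without replicates 1, 2 and 3 of DES with cadmium. Of 20 metabolic targets 19 were tested with a median of 0.27, or 0.05 under total-fragment scaling, 0.49 and 0.06 without DES replicates 1 and 3 and 0.04 and 0.41 without replicates 1 and 3 of DES with cadmium. In both lists limma called 0 genes in either fit (0 and 1 at an unadjusted p under 0.05). The list of genes with qPCR in the study had 10 entries, and KLF4 alone was tested. It had 9.19, 12.2 and 11.2 FPKM with DES and 5.95, 7.31 and 11 FPKM with DES and cadmium, groups that overlapped, with a log2 change of -0.46, or -0.27 and -0.70 without replicates 1 and 3 of DES with cadmium.

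The study's own lists of genes moved by calcium, cadmium and GSK4716 were chosen on libraries of this series, so they are not independent. The table of raised genes holds 39 entries, 1 fewer than its heading gives. Of 39 genes listed as raised 28 were tested, and the median was -0.08 with DES present, beside 1.64 for cadmium against control. With DES present it was 0.01 under quantile normalization, -0.30 under total-fragment scaling and -0.36 under voom. It ran from -0.30 without DES replicate 1 to -0.02 without replicate 2 of DES with cadmium. The signal peptide ADM, on that list, had 31.5, 26.0 and 36.1 FPKM with DES and 12.1, 16.2 and 16.6 FPKM with DES and cadmium, groups apart (log2 change -1.06, adjusted p 0.166, 0.0768 with the block). Without DES its log2 change with cadmium was 2.97. The difference between the changes, -4.02, had an adjusted p of 0.0566. Of 37 genes listed as lowered 36 were tested, with a median of -0.50 beside -1.70 without DES, and 0.11 and -0.81 when replicates 2 and 3 of DES with cadmium were left out. In both lists limma called 0 genes (4 and 2 at an unadjusted p under 0.05), and CCNE2 was called with the block.

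The other lists held 0 called genes in the main fit. Medians were -0.05 for 24 of 26 genes of the integrated stress response, 0.04 for 23 genes of the unfolded protein response, 0.00 for 21 of 25 immediate early genes, 0.04 for 14 of 15 hypoxia genes and 0.15 for 34 proteasome subunits. At an unadjusted p under 0.05 stood 5, 2, 4, 1 and 1 of these genes, and KLF10, an immediate early gene, was called with the block. DDIT3, a death-promoting factor of the stress response, had 38.4, 74.6 and 49.3 FPKM with DES and 37.3, 20.1 and 18.4 FPKM with DES and cadmium, groups apart with an adjusted p of 0.30. Medians were 0.11 for 16 of 22 androgen response genes, 0.20 for 10 of 16 estrogen response genes, 0.16 for 7 of 8 aryl hydrocarbon receptor genes, -0.12 for 15 of 16 p53 and CDK inhibitor genes and -0.26 for the 13 mRNAs of the mitochondrial genome. At an unadjusted p under 0.05 stood 1, 0, 0, 2 and 0 of these. Under total-fragment scaling the medians for the unfolded protein response, hypoxia, proteasome, androgen, estrogen and aryl hydrocarbon receptor lists were below 0. Leaving out 1 library also turned the sign of medians this close to 0: without DES replicate 3 and without replicate 1 of DES with cadmium they were -0.12 and -0.21 for the estrogen list, -0.10 and -0.23 for the unfolded protein response, -0.23 and -0.19 for the aryl hydrocarbon receptor list and -0.03 and -0.12 for the proteasome. Without replicate 2 of DES with cadmium they were 0.15 for the integrated stress response, 0.10 for the p53 list, 0.18 for immediate early genes and 0.48 for mitochondrial mRNAs (-1.13 without its replicate 1, and -0.70 under quantile normalization). The p53 median was -0.34 without DES replicate 1, and that of the integrated stress response was -0.24 without replicate 1 of DES with cadmium. Without replicate 3 of DES with cadmium medians were -0.44 for the p53 list, -0.25 for immediate early genes and -0.30 for hypoxia genes. The androgen median was 0.05 without that replicate 3. Of 32 genes of sterol and fatty acid synthesis 31 were tested, 26 had a log2 change above 0 and the median was 0.33, or 0.15 and 0.64 without DES replicates 2 and 3 and 0.57 and 0.04 without replicates 2 and 3 of DES with cadmium; it was 0.11 under total-fragment and 0.12 under voom scaling. INSIG1, a sterol sensor in that list, had 45.2, 51.1 and 77.0 FPKM with DES and 139, 55.9 and 189 FPKM with cadmium (log2 change 1.01, adjusted p 0.484), and the groups overlapped.

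The effect of cadmium was set beside that without DES, gene by gene. Over 12611 genes tested in both comparisons, which share no libraries, the log2 changes had a Pearson r of 0.115, a description across genes that are not independent replicates. Of these genes 473 were called for cadmium against control, and 17 with DES present; 4 genes were in both lists, 0.846% of the former and 23.5% of the latter, beside 0.135% of the 12611 genes called with DES present and 3.75% called without it. With 17 genes called on top of DES, the lists could share at most those. Among them SLC30A1, MT1B and AC108134.2 rose in both. The difference between the cadmium effects, tested as the interaction of cadmium with DES, was called at 206 of 14032 genes (1.47%), 43 higher and 163 lower with DES. The blocked fit called 360. Leaving out 1 library moved the count to 412, 39 and 82 (cadmium replicates 1, 2 and 3), 35, 40 and 52 (control replicates 1, 2 and 3), 298, 26 and 36 (DES replicates 1, 2 and 3) and 210, 449 and 154 (replicates 1, 2 and 3 of DES with cadmium).

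The metallothionein gene MT1E and the chaperone gene HSPA6 had smaller log2 changes on top of DES, where their level without cadmium was already above that of control cells. MT1E had 0.118, 0 and 0 FPKM in control cells, 414, 466 and 740 with cadmium, 10.0, 9.90 and 23.0 with DES and 1433, 97.2 and 444 with DES and cadmium. The cadmium groups overlapped, the mean of the last group was 658 FPKM, or 271 without replicate 1, and the difference between the log2 changes, 11.98 without and 4.90 with DES, was -7.08 (adjusted p 0.0146). The control value rests on fragments in 1 library of 3, so the fitted change without DES depends on the pseudocount. MT1E was the 1 metallothionein with an interaction call; the other members ran from -4.05 (MT1X) to 3.48 (MT1H), MT1B had 2.00 (adjusted p 0.448), and the list's median was 1.56. HSPA6 had log2 changes of 9.55 without and 1.47 with DES and a difference of -8.09 (adjusted p 0.0141). KLF10 had a log2 change of 1.13 with cadmium without DES and of -1.55 with DES, a difference of -2.68 (adjusted p 0.0126). Histones gave 9 interaction calls, all lower with DES, with a list median of 1.52 for cadmium against control beside -0.52 on top of DES. AC026461.3 went the other way, with a mean of 0.248 FPKM with cadmium without DES and 7.31 FPKM with DES and cadmium, 0 in both groups without cadmium, and a difference of 4.20 (adjusted p 0.0274).

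**Figure D5:**
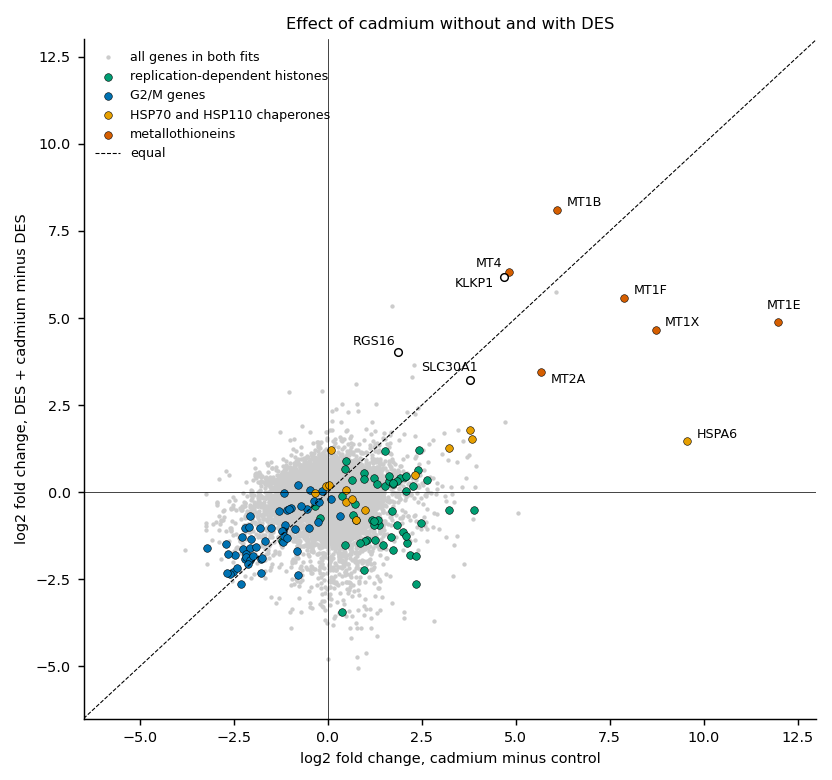
Log2 change of cadmium against control (horizontal) against log2 change of DES with cadmium against DES (vertical), 1 point per gene for 12611 genes, with histones, G2/M genes, HSP70 genes and metallothioneins coloured and a dashed line of equal change. MT1E lies at 11.98 without and 4.90 with DES, and the Pearson r over all points is 0.115.

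Cadmium and calcium on top of DES were also set against each other, as both followed the same 3 h of DES. Limma called 1 of 13302 genes (0.00752%), KLKP1, which had 0.773, 0.484 and 0.204 FPKM with DES and calcium beside 22.8, 16 and 22.2 FPKM with DES and cadmium. The groups were far apart (log2 change 5.23, adjusted p 0.0221). Without replicate 2 of DES with cadmium 15 genes were called, KLKP1 among them. Limma called 0 without replicate 3 of DES with cadmium or replicate 2 of DES with calcium (1818 and 780 at an unadjusted p under 0.05), and 1 without each other library: KLKP1 without replicate 1 or 3 of DES with calcium, and the pseudogene HMGB1P10, named after its values were seen (log2 change -3.69, adjusted p 0.0133), without replicate 1 of DES with cadmium. The blocked fit called AC108134.2 in place of KLKP1 (log2 change 5.56, adjusted p 0.0196). The metallothioneins summed to 359, 667 and 1236 FPKM with DES and calcium, beside 15210, 2153 and 7190 FPKM with DES and cadmium. SLC30A1 had a mean of 20.3 FPKM with DES and calcium and 243 FPKM with DES and cadmium, a log2 change of 3.47 with an adjusted p of 0.0742.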

How the data were processed

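The libraries were read as the deposited table of FPKM, which the authors made from poly-A RNA with HISAT2 2.0.5 and featureCounts 1.5.0-p3 on GRCh38.p14. Fragments per gene were recovered from FPKM, gene length and library size, all whole within 0.1. Genes under 200 bases or with a mean under 0.5 FPKM over the 6 libraries were left out. Since the values are FPKM and not counts, limma 3.58.1 (R 4.3.3) with a mean-variance trend was fitted to log2 of FPKM plus 0.1, a unit and test that may differ from the study's own. Benjamini-Hochberg adjustment ran over all genes tested. Python 3.11.15 with pandas 2.3.3, scipy 1.17.1, numpy 2.4.6 and matplotlib 3.10.9 made the tables and drew the plots. Gene deviations from their group mean correlated between libraries of the same number by 0.524, 0.176 and 0.411 over 13690 genes, so the data, not the labels, gave the pairing behind the replicate block; replicate 2 with cadmium correlated more with DES replicate 3 (0.274).

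Named genes were, with a mean of at least 1 FPKM and groups apart, the 12 called genes with the highest and the 12 with the lowest change, the same for the blocked fit with all 3 pairs in 1 direction, the 8 extremes in each direction called or not, all metallothioneins, the qPCR genes, ESRRA and ESRRG, and the 2 extremes in each direction of each list. Members and lists were chosen with earlier results of these data known. Alternatives were other pseudocounts, filters, scalings, weights, voom, blocking and leaving out each library. Folds against a group at 0 used a floor of 3 fragments per library; groups with 1 to 3 fragments in all have a ratio with a 95% counting interval. Promoter windows came from RefSeq.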

Additional observations from a re-analysis of the deposited data

Results flagged for a closer look

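These genes were singled out because the effect of cadmium differed with and without DES: the interaction of cadmium with DES, tested by limma over all genes, was called for each. Values are the log2 change with DES minus that without it. MT1E had -7.08, with higher levels under cadmium in both settings but a higher start with DES. TNFAIP3 had -5.00, KLF10 -2.68 and HRCT1 -3.11. The histone pseudogene HIST2H2BA had -5.40. ATF5, a transcription factor of the stress response, had 2.41, with a log2 change of -1.95 without DES and 0.47 with it. AC026461.3, between MT2A and MT1L, had 4.20.

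The remaining genes are also non-coding genes or pseudogenes, which were lower with DES and cadmium than with DES alone: AC022211.3 had -2.99, AC073210.1 -5.52, AC092757.3 -4.98, AC100830.2 -5.61, AC135507.1 -4.76, AC138393.3 -5.86, AL020995.1 -3.57, AL117381.1 -4.80, NDUFA3P1 -5.63, RF00017 -5.71 and RN7SL441P -4.66. Where a group has few or no fragments, the size of these values depends on the pseudocount.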

How the results depend on the processing

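The 122 tested named genes gave 3341 values under the alternatives: 2810 kept their direction and side of the threshold, 220 lost a call, 198 gained one, 113 changed sign without a call and 0 reversed. Counts moved far more, and the cause was not tested. For DES with cadmium against DES (32 genes, 7 higher, 25 lower), the count, higher and lower, was 56 and 50 lower with a pseudocount of 1, 3, 3 and 0 with no filter, 2, 2 and 0 at a mean of at least 2 FPKM, 50 with 43 lower with no length limit, 8, 3 and 5 with median-ratio scaling, 0, 0 and 0 with total-fragment scaling (limma, 1729 at an unadjusted p under 0.05) and with voom (1612), 60, 18 and 42 with quantile normalization, and 2414, 744 and 1670 with arrayWeights, which gave DES replicate 2 a weight of 6.70. All 7 groups in 1 fit gave 706, 108 and 598. The replicate block gave 172, 22 and 150; with voom 247, 23 and 224; with total-fragment scaling 336, 21 and 315; with median-ratio scaling 89, 11 and 78; with a pseudocount of 1, 433, 44 and 389; without replicate 1 of both groups 0, 0 and 0 (2145), without replicate 2 743, 117 and 626, and without replicate 3 2, 2 and 0. Leaving out 1 library gave 0 to 77 genes, 0 to 13 higher and 0 to 64 lower. Chosen after seeing the data, protein-coding genes alone gave 0, 0 and 0 (840), the block with coding genes alone 23, and a mean of at least 10 fragments 34.

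The interaction count (206) was 413 with a pseudocount of 1, 72 with no filter, 113 at a mean of at least 2 FPKM, 6741 with arrayWeights, 35 with voom, 360 with the block and 26 to 449 without 1 library. DES with cadmium against DES with calcium (1) gave 4 with a pseudocount of 1, 0 with no filter (2096), 3 at a mean of at least 2 FPKM, 6 with no length limit, 0 with quantile normalization (1885), 535 with arrayWeights, 5 with robust empirical Bayes, 0 with voom (1545) and 0 to 15 without 1 library. Some values under about 1 FPKM rest on a few fragments.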
